A study of Mus musculus with 10 samples.

Results

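Cadherin junctions hold cells together through E-cadherin (Cdh1), a membrane protein that binds the same protein on the neighbouring cell. Its inner tail carries p120-catenin (Ctnnd1), which keeps it at the surface, and beta-catenin (Ctnnb1) or its relative plakoglobin (Jup). Alpha-catenin (Ctnna1) ties this complex to actin, ZO-1 (Tjp1) is a scaffold of tight junctions, and keratins 8 and 18 (Krt8, Krt18) pair into the filaments of simple epithelia. In mouse embryos E-cadherin and its catenins are known for compaction, the flattening of blastomeres against each other, and keratins 8 and 18 for the trophectoderm, both later than the stages sampled here. The 8 genes were chosen by name for these roles. Of these, 7 had values among the 21437 genes of the expression table, 4 (Cdh1, Ctnna1, Ctnnb1 and Ctnnd1) passed the filter for testing, and Krt8 was not analysed here.

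The study examined how maternal mRNA is cleared in mouse embryos and what Argonaute 2 (Ago2), the slicing protein of RNA interference, contributes to it. RNA-seq covered 5 groups of 2 libraries: MII oocytes collected 16 h after hCG, control middle 2-cell embryos at 40 h, control early 4-cell embryos at 55 h, and Ago2 kd embryos at both embryonic stages. For Ago2 kd, zygotes received siRNA against Ago2 and, per the methods, an antibody to AGO2, and scrambled siRNA is named as the negative control. Females were 7 weeks old and superovulated with 6.5 IU of PMSG and 5 IU of hCG, and the zona pellucida was removed before lysis. The labels give the strain ICR and the genotype wild type or Ago2-kd, whereas the growth protocol gives F1 mice and the methods ICR females for oocytes and F1 crosses for embryos. Strain and stage therefore cannot be told apart between oocytes and embryos. The number of oocytes or embryos in a library is not given in the sources used here, nor whether the replicates came from separate collections, so p-values measure the spread between these libraries, which may be technical. The level of Ago2 was not analysed here.

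Values are FPKM, fragments scaled to the mapped total of each library and to exon length, and so relative to the rest of that library. Each library holds whole oocytes or embryos, so fewer cells with an mRNA and less mRNA per cell cannot be told apart. FPKM do not hold read counts, so the depth of each library is unknown. FPKM summed to 450124 and 458874 in oocyte libraries and to between 178681 and 326352 in embryo libraries. Between the replicates of a group, 11.4% to 25.5% of genes with at least 10 FPKM in a library were more than 10-fold apart. Actg1, a cytoplasmic actin, was listed at 0 in 8 libraries and at 0.0211 and 0.0552 FPKM in the others, so a gene listed at 0 may still have been present. Summed FPKM of 12 oocyte markers lay at 22840 and 25820 in oocytes, 8146 to 10186 at the 2-cell stage and 29.4 to 72.5 at the 4-cell stage. Summed FPKM of 10 2-cell markers with values were 90.0 and 118 in oocytes, 357 to 683 at the 2-cell stage, 7.44 to 27.4 in 3 of the 4-cell libraries and 348 in replicate 2 of 4-cell Ago2 kd, where 314 came from Dppa4, listed at 0 in the other 9 libraries. Of 14 cumulus and granulosa cell markers, 3 had values. Foxl2 and Vcan were at 0 in every library, and the sum was 34.6 FPKM, all from Nr5a2, in replicate 1 of the 4-cell control and at most 0.257 in the other 9 libraries. A value of Nr5a2 alone does not tell cumulus cells from expression in the embryo itself, and this was not tested.

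Cdh1, which codes for E-cadherin, was at 29.2 and 46.6 FPKM in the oocyte libraries. Both libraries of the 2-cell control were listed at 0. The 2-cell Ago2 kd libraries were at 11.8 and 0 FPKM, those of the 4-cell control at 10.6 and 0 FPKM, and those of 4-cell Ago2 kd at 0.235 and 0 FPKM. Both oocyte libraries were thus above all 8 embryo libraries, and within 2-cell Ago2 kd and 4-cell control 1 library held a clear value while the other was at 0. Cdh1 lies on chromosome 8 (106603351 to 106670246, plus strand; GRCm38, GENCODE M21), with 3 annotated transcripts and no overlapping gene.

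Ctnna1, for alpha-catenin, was the only member above 10 FPKM in all 10 libraries. Its FPKM were 116 and 117 in oocytes, 33.4 and 29.7 in the 2-cell control, 45.5 and 16.8 in 2-cell Ago2 kd, 20.0 and 21.9 in the 4-cell control, and 14.0 and 11.3 in 4-cell Ago2 kd. The oocyte libraries were the highest and the 4-cell Ago2 kd libraries the lowest, with no overlap with any other group in either case. Ctnna1 lies on the plus strand of chromosome 18 (35118859 to 35254779) and holds within its bounds the protein-coding gene Lrrtm2 on the other strand. Strand was not stated for the counting, so reads could not be told apart wherever exons of the pair overlap. Only the bounds of the genes were compared, and overlap of their exons was not examined.

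Ctnnb1, for beta-catenin, differed most between replicates. The oocyte libraries were at 200.3 and 1.64 FPKM, the 2-cell control libraries at 0.0425 and 0.596, and those of 2-cell Ago2 kd at 1.0 and 0.147. At the 4-cell stage the control libraries were at 32.6 and 1.04 FPKM and those of Ago2 kd at 0.128 and 0.243 FPKM. Replicate 1 of the oocytes and replicate 1 of the 4-cell control stood apart from the other 8 libraries, which were all at or below 1.64 FPKM. Ctnnb1 lies on chromosome 9 (120929216 to 120960507, plus strand), has 15 annotated transcripts and overlaps Ulk4 and the antisense gene 4930593C16Rik on the minus strand and the miRNA gene Mir7090.

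Ctnnd1, for p120-catenin, was listed at 0 in 8 libraries and at 2.23 FPKM in replicate 1 of the 2-cell control and 4.26 FPKM in replicate 1 of 2-cell Ago2 kd. Jup, for plakoglobin, stayed between 0.0369 and 0.758 FPKM, and its highest value was in replicate 2 of the oocytes. Tjp1, for ZO-1, was at 0.685 and 0.438 FPKM in oocytes and between 0 and 0.171 FPKM in the 8 embryo libraries. Krt18 was listed at 0 in 9 libraries and at 4.17 FPKM in replicate 1 of 2-cell Ago2 kd. These 4 genes lie on chromosome 2 (84600071 to 84650765, minus strand), chromosome 11 (100368958 to 100397763, minus strand), chromosome 7 (65296165 to 65527781, minus strand) and chromosome 15 (102028180 to 102032027, plus strand), in that order. Ctnnd1 has 30 annotated transcripts and overlaps Gm28635 on its own strand, and Krt8 lies 23697 bases from Krt18. Replicate 1 of 2-cell Ago2 kd held the sole Krt18 value, the highest Ctnnd1 value and the sole value of Cdh1 above 0 among the 4 2-cell libraries. It also had the fewest genes at 0 (8608, against 9554 to 11185 in the other libraries), and the part of this in the values was not tested.

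**Figure D1:**
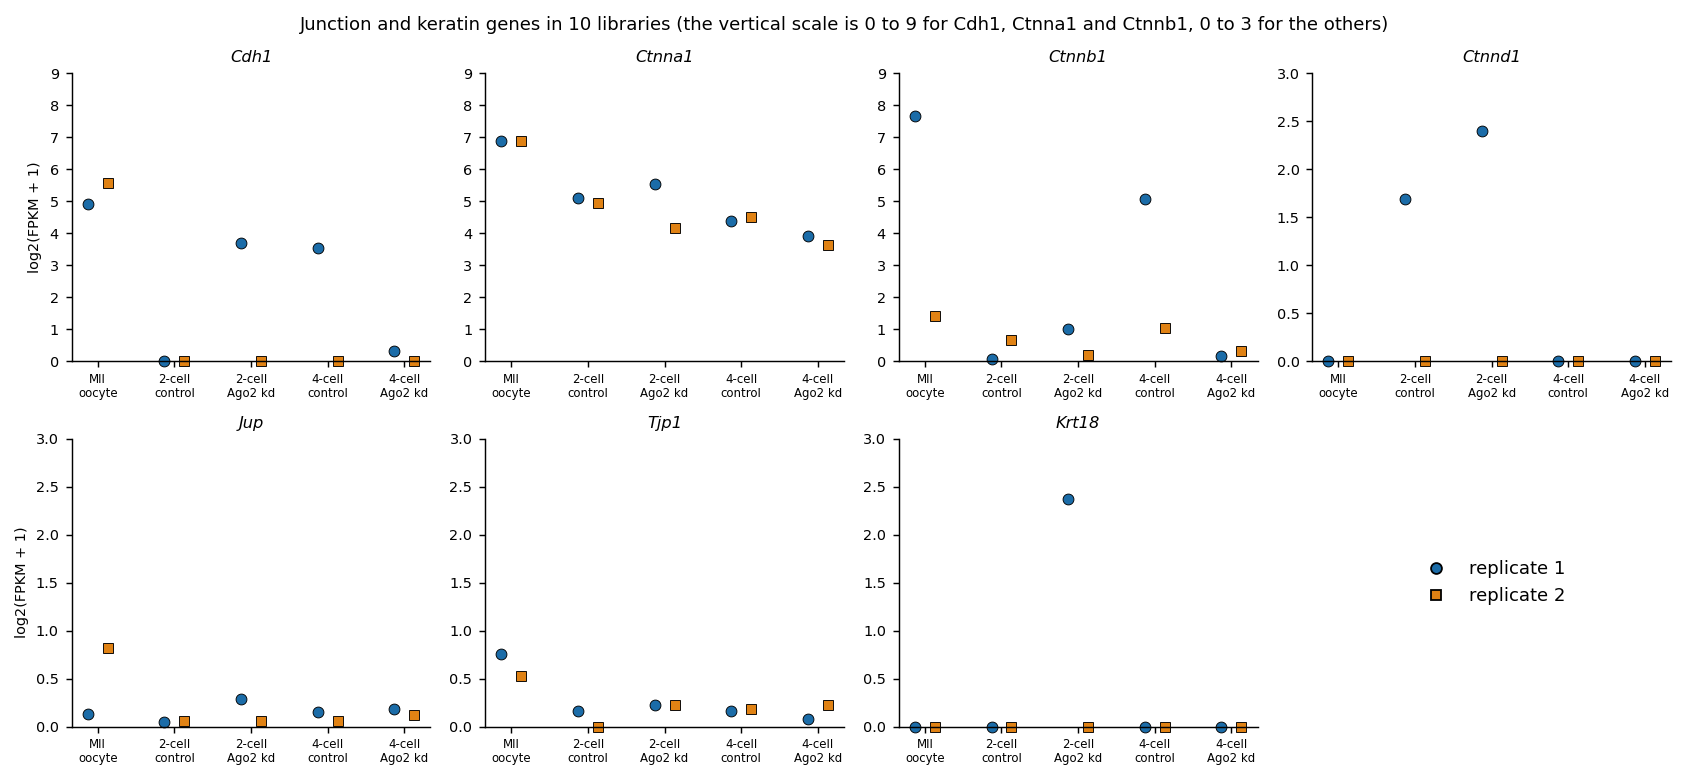
Level of each gene as log2(FPKM + 1) on the vertical axis, by group on the horizontal axis, with 1 point per library (circles for replicate 1, squares for replicate 2). Ctnna1 is at 116 and 117 FPKM in oocytes and at 14.0 and 11.3 FPKM in 4-cell Ago2 kd, with replicates apart in 2-cell Ago2 kd (45.5 and 16.8 FPKM), and Ctnnb1 and Cdh1 are far apart between the replicates of the 4-cell control.

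RefSeq promoters of GRCm38.p6, from 250 bases before to 50 after each start, were matched for Ctnnb1, Ctnnd1, Jup, Tjp1, Krt8 and Krt18, and not for Cdh1 and Ctnna1. Both strands were searched for TATAAA, the GC box GGGCGG, the AP-1 motif TGANTCA, the TEAD motif GGAATG and the E-box CANNTG, which 13.6%, 35.7%, 7.81%, 14.7% and 72.3% of 32851 promoters held. The GC box was in the windows of Ctnnb1, Jup and Tjp1 and not in those of Ctnnd1, Krt8 and Krt18. The E-box was in 1 window of Ctnnd1 and those of Krt8 and Krt18, and not in those of Ctnnb1, Jup and Tjp1. TATAAA was in windows of Ctnnb1, Ctnnd1 and Krt8, and neither TGANTCA nor GGAATG was in any of the 8 windows. The window of Ctnnb1 that holds both TATAAA and the GC box is shown because this gene spanned the widest range of levels. Capitals mark 1 TATAAA and 3 GC boxes, of which the first and second read CCGCCC on this strand, and a match describes letters and not a bound site.
Ctnnb1 promoter, chr9:120933328-120933627, plus strand: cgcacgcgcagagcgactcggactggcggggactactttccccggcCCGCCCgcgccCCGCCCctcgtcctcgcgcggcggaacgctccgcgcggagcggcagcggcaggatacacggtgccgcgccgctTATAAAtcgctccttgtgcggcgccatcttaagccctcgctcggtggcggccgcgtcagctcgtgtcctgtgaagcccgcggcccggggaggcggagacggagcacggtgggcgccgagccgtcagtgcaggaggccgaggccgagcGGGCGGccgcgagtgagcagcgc

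The comparison of 2-cell control embryos with MII oocytes asks which maternal mRNAs had gone by the 2-cell stage. Differences here are on the log2(FPKM + 1) scale, from a limma fit over 8726 genes, and a gene is called changed at a Benjamini-Hochberg adjusted p below 0.05. Cdh1 and Ctnna1 fell, 2 of the 4 members tested, where 20.8% of all genes tested were called. Ctnna1 fell by 1.85 (standard error 0.47, 95% interval -2.96 to -0.75, adjusted p = 0.0318). Cdh1 fell by 5.24 (standard error 1.42, interval -8.62 to -1.87, adjusted p = 0.0415), a difference that is no fold because the 2-cell libraries were listed at 0. Ctnnb1 was lower in both 2-cell libraries than in both oocyte libraries, but its difference of -4.16 (interval -9.02 to 0.70, adjusted p = 0.221) was within the spread. The number of all genes that separated in this way was not counted. Ctnnd1 differed by 0.84 (interval -1.07 to 2.76, adjusted p = 0.556).

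The calls of Cdh1 and Ctnna1 rested on few libraries and on the scaling. With libraries scaled to the same median of expressed genes the differences were -4.82 (adjusted p = 0.0657) and -1.15 (adjusted p = 0.217), and with quantile normalization -4.69 (adjusted p = 0.0729) and -0.83 (adjusted p = 0.434). Leaving out any 1 of the 4 oocyte and 2-cell control libraries ended both calls, with adjusted p of 0.131 to 0.178 for Cdh1 and 0.0929 to 0.149 for Ctnna1. The Cdh1 call also ended without replicate 1 or 2 of 4-cell Ago2 kd (adjusted p = 0.0620 and 0.0608). Both genes were lower at the 2-cell stage in all 16 alternatives run. In the fits without 1 library this direction was fixed in advance, since both 2-cell control libraries lay below both oocyte libraries. Without replicate 2 of the oocytes, Ctnnb1 was lower by 7.29 on the log2 scale and passed the threshold (adjusted p = 0.0452). Over all genes tested, 571 were called higher and 1240 lower, against 776 and 844 after median scaling, and the median difference moved from -0.06 to 0.05. Relative to the unscaled median, Cdh1 differed by -5.18 and Ctnna1 by -1.79.

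The oocyte columns were also written differently. Of their values above 0, 22.2% and 23.5% carried more than 6 significant digits, against 1.40% to 1.82% in the embryo libraries, and the Cdh1 and Ctnna1 values of both oocyte libraries and the Ctnnb1 value of replicate 1 were among them. Genes with such values in both oocyte libraries had a median difference of -0.93, with 25.1% of 1271 called lower and 3.15% higher. Genes with none had a median of 0.01, with 10.3% of 5495 called lower and 8.37% higher. How these values came about, and whether oocyte and embryo columns were made alike, is not given in the sources used here. If several entries of 1 gene name had been added together in the oocyte columns alone, oocyte levels of Cdh1, Ctnna1 and Ctnnb1 would be too high and their falls too large, and this was not tested.

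**Figure D2:**
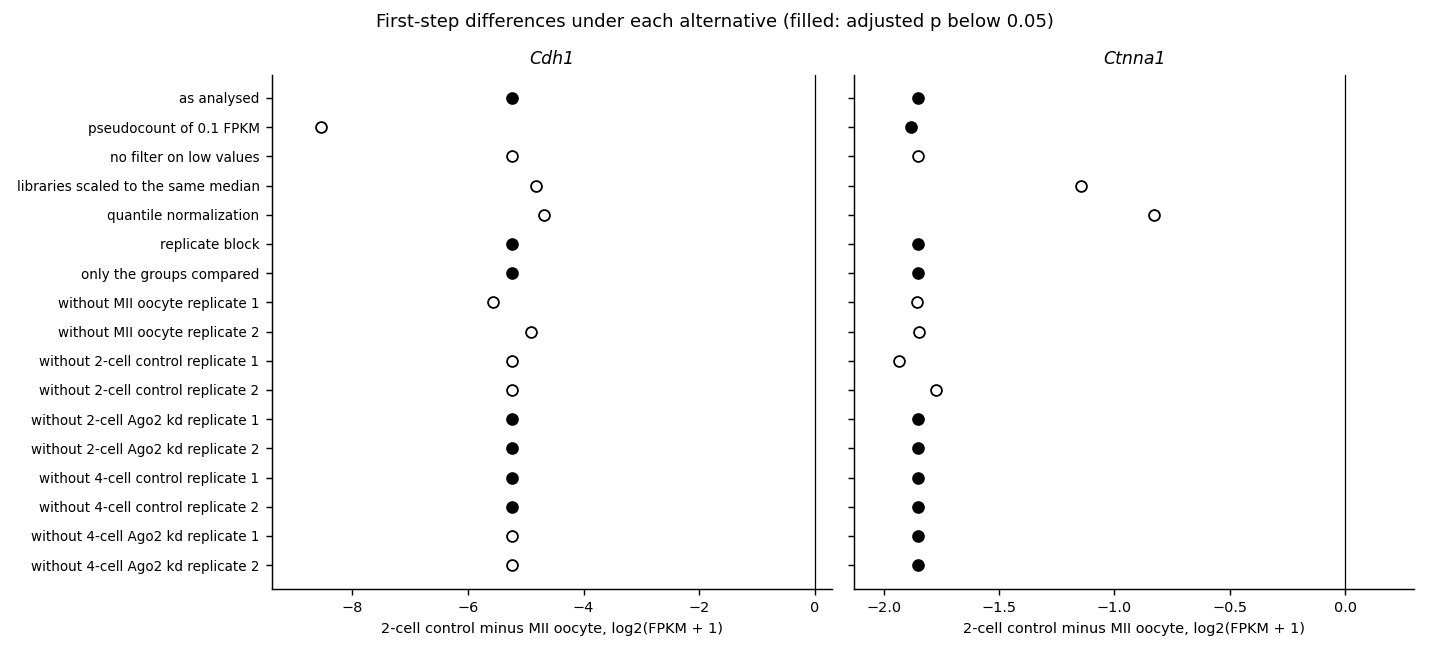
Difference of 2-cell control minus MII oocyte in log2(FPKM + 1) on the horizontal axis for Cdh1 and Ctnna1, with 1 row per way of analysing the data and filled points at an adjusted p below 0.05. All points lie below 0, and Ctnna1 moves from -1.85 to -0.83 with quantile normalization, where neither gene passes.

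Tjp1 and Jup were under 1 FPKM in every library and did not pass the filter. When every gene was kept, Tjp1 was lower in 2-cell control embryos by 0.56 on the log2 scale (standard error 0.11, adjusted p = 0.0389). Jup differed by -0.42 in that fit (adjusted p = 0.454). Neither keratin could be followed, since Krt18 was listed at 0 in all oocyte and control libraries.

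From the 2-cell to the 4-cell control none of the 4 members was called, at adjusted or unadjusted p below 0.05, where 38.6% of all genes were called after adjustment and 46.9% without it. Ctnna1 was lower in both 4-cell libraries, by a difference of -0.57 (interval -1.68 to 0.54, adjusted p = 0.373). Cdh1 differed by 1.77 (interval -1.61 to 5.15, adjusted p = 0.365), which came from replicate 1 of the 4-cell control alone and was 0 without it. Ctnnb1 was higher in both 4-cell libraries, by 2.68 (interval -2.18 to 7.54, adjusted p = 0.340), and by 0.66 without the same library. How many of all genes separated like Ctnna1 and Ctnnb1 at this step was not counted. Ctnnd1 differed by -0.84 (adjusted p = 0.442). The median difference of all genes at this step was 0.24, and 0 after median scaling, so relative to it Ctnna1 differed by -0.81.

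Over the whole span from oocyte to 4-cell control, Ctnna1 fell by 2.42 (standard error 0.47, adjusted p = 0.00492), the 1 call among 4 members where 48.4% of all genes were called. Cdh1 differed by -3.48 (adjusted p = 0.0842) and Ctnnb1 by -1.47 (adjusted p = 0.584). Against the same oocyte libraries, Ctnna1 was lower by 2.03 in 2-cell Ago2 kd (adjusted p = 0.0252), where 19.5% of genes were called, and Cdh1 differed by -3.40 there (adjusted p = 0.155). In 4-cell Ago2 kd, where 47.1% of genes were called, Ctnna1 was lower by 3.11 (adjusted p = 0.00168) and Cdh1 by 5.09 (adjusted p = 0.0233). The Ctnna1 calls in 4-cell control and 4-cell Ago2 kd embryos held in all 16 alternatives each. The Ctnna1 call in 2-cell Ago2 kd held in 10 of 16. It ended with median scaling (adjusted p = 0.194), quantile normalization (0.396) or only the groups compared (0.124), and without replicate 1 or 2 of the oocytes or replicate 2 of 2-cell Ago2 kd (0.132, 0.132 and 0.0528). The Cdh1 call in 4-cell Ago2 kd also held in 10 of 16, and ended with a pseudocount of 0.1 FPKM (0.0548), with no filter (0.0687) and without any 1 of the 4 libraries compared (0.0677 to 0.1001). For Cdh1 in 4-cell control embryos the adjusted p was 0.0299 without replicate 1 of that group, and 0.0451 and 0.0459 without replicate 1 or 2 of 2-cell Ago2 kd. Ctnnb1 in 4-cell Ago2 kd differed by -4.28 (adjusted p = 0.132), and by -7.41 (adjusted p = 0.0158) without replicate 2 of the oocytes. These comparisons all share the oocyte libraries and are given side by side.

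In the order of group means, Ctnna1 ran from MII oocyte through 2-cell control, 2-cell Ago2 kd and 4-cell control to 4-cell Ago2 kd. Of these 4 steps between neighbours only the step from oocyte to 2-cell control was called. Cdh1 ran from MII oocyte through 2-cell Ago2 kd, 4-cell control and 4-cell Ago2 kd to 2-cell control, and Ctnnb1 from MII oocyte through 4-cell control, 2-cell Ago2 kd and 2-cell control to 4-cell Ago2 kd. No step between neighbours was called for either gene.

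The Ago2 kd comparisons ask whether these mRNAs differed after knockdown of Ago2. At the 2-cell stage none of the 4 members was called, at adjusted or unadjusted p below 0.05, where 0.55% of all genes were called after adjustment and 5.96% without it. For Ctnna1 the Ago2 kd libraries (45.5 and 16.8 FPKM) lay on both sides of the control libraries (33.4 and 29.7 FPKM) (difference -0.17, interval -1.28 to 0.93, adjusted p = 1). Cdh1 differed by 1.84 (interval -1.54 to 5.22), Ctnnb1 by 0.23 (interval -4.63 to 5.09) and Ctnnd1 by 0.35 (interval -1.56 to 2.27), each with an adjusted p of 1. Krt18, at 4.17 and 0 FPKM against 0 and 0 FPKM, differed by 1.19 in the fit of all genes (adjusted p = 0.773).

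At the 4-cell stage none of the 4 members was called either, at adjusted or unadjusted p below 0.05, where 4% of all genes were called after adjustment and 15.4% without it. Ctnna1 and Ctnnb1 were lower in both Ago2 kd libraries than in both control libraries. For Ctnna1 the difference was -0.69 (standard error 0.47, interval -1.80 to 0.41, adjusted p = 0.569). For Ctnnb1 it was -2.81 (standard error 2.05, interval -7.67 to 2.05, adjusted p = 0.612), and -0.79 without replicate 1 of the 4-cell control. Cdh1 differed by -1.62 (interval -4.99 to 1.76, adjusted p = 0.692) and by 0.15 without that library, and Ctnnd1 was listed at 0 in all 4 libraries. For 1 gene, an exact permutation test of 2 libraries against 2 cannot give a two-sided p under 0.333, even without overlap. How many of all genes did not overlap in this comparison was not counted.

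The difference between the 4-cell and the 2-cell Ago2 kd effect was not called for any member, at adjusted or unadjusted p below 0.05. Among all genes it was called for 2.28% after adjustment and 13.4% without it. It was -3.46 for Cdh1 (interval -8.23 to 1.32, adjusted p = 0.544), -0.52 for Ctnna1 (interval -2.08 to 1.05, adjusted p = 0.806), -3.04 for Ctnnb1 (interval -9.91 to 3.83, adjusted p = 0.722) and -0.35 for Ctnnd1 (interval -3.06 to 2.35, adjusted p = 0.944). The precision differed between the genes, and the Ctnna1 intervals were the narrowest in all 5 comparisons.

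**Figure D3:**
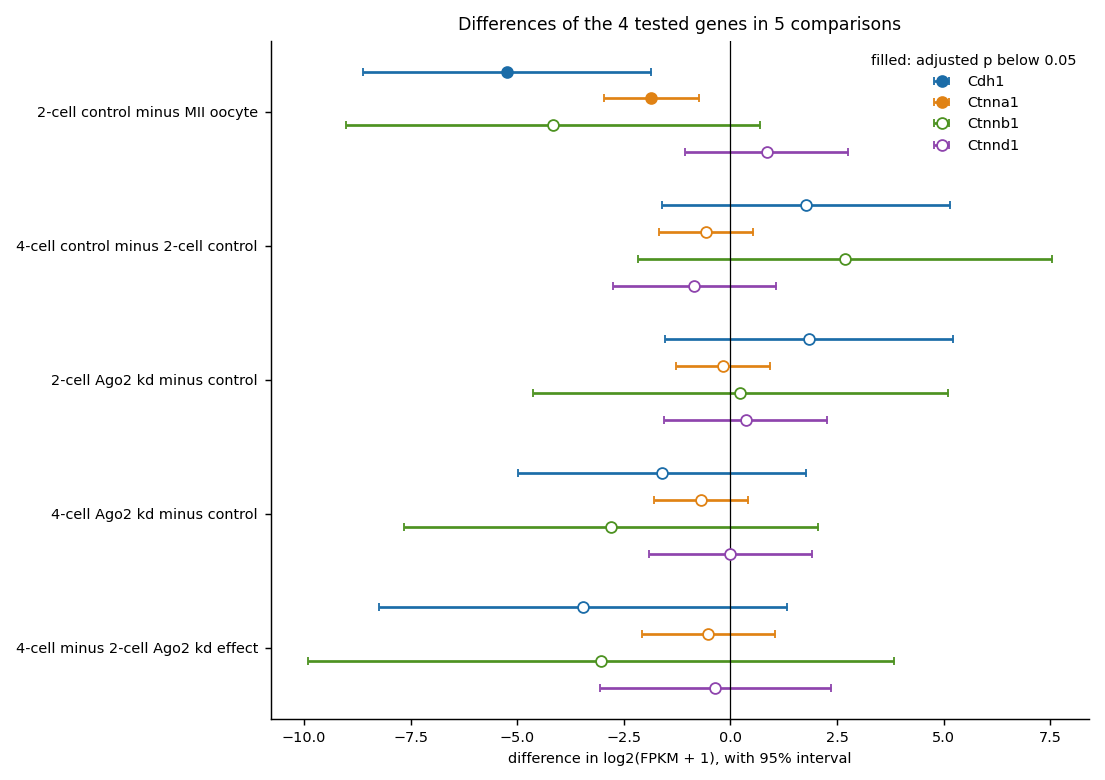
Difference in log2(FPKM + 1) on the horizontal axis for Cdh1, Ctnna1, Ctnnb1 and Ctnnd1 in 5 comparisons, as points with 95% intervals from limma, filled where the adjusted p was below 0.05. The sole filled points are Cdh1 at -5.24 and Ctnna1 at -1.85 in 2-cell control minus MII oocyte, and every Ago2 kd interval spans 0.

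Across the 10 libraries the closest pair of members was Cdh1 and Ctnna1, with a Pearson's r of 0.805 of log2(FPKM + 1), both being highest in the oocyte libraries. It was 0.665 for Cdh1 and Ctnnb1, 0.506 for Ctnna1 and Ctnnb1, and -0.233 for Ctnnb1 and Ctnnd1. Among all other genes tested, Ctnna1 was most like Gm43353 (r = 0.970), Nus1 (0.965) and Zfp563 (0.958), all highest in the oocyte libraries. Cdh1 was most like Usp53 (0.949), Platr14 (0.946) and Itsn1 (0.922). Usp53, at 33.4 and 38.5 FPKM in oocytes, shared with Cdh1 the gap between replicates of 2-cell Ago2 kd (19.0 and 0.0827 FPKM).

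Among the genes most like Ctnnb1 were Gltp (0.983) and Mtbp (0.982). Gltp was at 55.1 FPKM in replicate 1 of the oocytes, at 17.2 FPKM in replicate 1 of the 4-cell control and at 0 in the other 8 libraries. Ctnnd1 was most like Fut8 (0.987), Net1 (0.986) and the keratin gene Krt71 (0.984), each above 0 only in replicate 1 of the 2-cell control and of 2-cell Ago2 kd. The r of these genes rests on the same 2 libraries and describes that pattern alone. Of genes tested, 27 were at 1 FPKM or more in just these 2 libraries of the 2-cell stage. Over the 40 pairs of libraries from different groups this number had a median of 13.5 and a range of 5 to 111. Among them, pairs of a 2-cell control with a 2-cell Ago2 kd library ranged from 17 to 34.

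The other genes of junctions and their neighbours were taken from 6 lists, each with its share of genes tested. Of 18 adherens junction partners 14 had values and 5 were tested, with a median difference of -0.66 from oocyte to 2-cell control against -0.06 over all genes. Pvrl3, the older symbol of the adhesion molecule nectin-3, had FPKM of 365 and 321 in oocytes, 33.1 and 27.0 in the 2-cell control and 0.0357 and 5.93 in the 4-cell control. It fell by 3.47 at the step to the 2-cell stage (adjusted p = 0.0255) and by 3.53 at the step to the 4-cell stage (adjusted p = 0.0144). Its Ago2 kd libraries were at 24.6 and 41.2 FPKM at the 2-cell stage and 2.81 and 3.17 FPKM at the 4-cell stage, with no call. Ajuba, a LIM protein of adherens junctions, was listed at 0 in oocytes and rose by 3.10 from 2.57 and 0 FPKM to 14.5 and 15.9 FPKM at the step to the 4-cell stage (adjusted p = 0.0464). The call of Pvrl3 at the step to the 2-cell stage held in 8 of 16 alternatives and ended under median scaling (adjusted p = 0.0533) and without any 1 of the 4 libraries compared (0.0824 to 0.132). At the step to the 4-cell stage the Pvrl3 call held in 13 of 16 alternatives. It ended with only the groups compared (adjusted p = 0.112) and without replicate 1 or 2 of the 2-cell control. The Ajuba call held in 3 of 16 alternatives and ended without any 1 of the 8 libraries outside 4-cell Ago2 kd (0.0506 to 0.212).

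Of 18 tight junction and polarity genes 15 had values and 9 were tested, with 1 called higher at the step to the 2-cell stage and 3 called lower at the step to the 4-cell stage, where 20.8% and 38.6% of all genes were called. Their medians were -1.11 and -0.67, against -0.06 and 0.24 over all genes. Cldn6, a claudin, was listed at 0 in oocytes, at 10.5 and 26.6 FPKM in the 2-cell control and at 0 and 2.42 FPKM in the 4-cell control. It rose (difference 4.16, adjusted p = 0.0127) and then fell by 3.27 (adjusted p = 0.0190). Pard6b, a polarity protein, fell by 2.24 at the latter step (adjusted p = 0.0374), from 7.07 and 9.45 FPKM to 2.78 and 0 FPKM. Inadl, the older symbol of the scaffold Patj, fell by 1.64 (adjusted p = 0.0333), from 6.01 and 9.81 FPKM to 0.892 and 3.10 FPKM. The rise of Cldn6 lost its call without either oocyte library or replicate 2 of the 2-cell control (adjusted p of 0.0738 to 0.0815). The call of its fall held in 11 of 16 alternatives. It ended with a pseudocount of 0.1 (adjusted p = 0.0633), with no filter (0.0550) and with only the groups compared (0.0875). It also ended without replicate 2 of the 2-cell control or replicate 1 of the 4-cell control. Of 6 other settings, 2 kept the Pard6b call and 4 the Inadl call. Pard6b kept its call in 3 and Inadl in 5 of 10 fits without 1 library. Both lost it without replicate 1 or 2 of the oocytes or of the 2-cell control, Pard6b also without either 2-cell Ago2 kd library or replicate 2 of the 4-cell control, and Inadl without replicate 1 of the 4-cell control (adjusted p of 0.0542 to 0.138).

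Of 22 genes of the Wnt and beta-catenin pathway 16 had values and 7 were tested. Ctnnbip1 codes for a protein that binds beta-catenin and keeps it from its transcription partners. It was at 47.3 and 49.9 FPKM in oocytes and listed at 0 in all 6 libraries of both 2-cell groups and the 4-cell control, with 8.36 and 0 FPKM in 4-cell Ago2 kd. Its fall at the step to the 2-cell stage (difference -5.63, standard error 0.92, adjusted p = 0.00607) was called in all 16 alternatives. Gsk3b codes for the kinase that marks beta-catenin for destruction. It was at 5.16 and 3.03 FPKM in oocytes, 2.53 and 4.63 FPKM in the 2-cell control and 25.5 and 28.8 FPKM in the 4-cell control, and was listed at 0 in all 4 Ago2 kd libraries. Its rise from the 2-cell to the 4-cell control (2.66, standard error 0.40, adjusted p = 0.00259) was called in all 16 alternatives.

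Comparing Ago2 kd with controls of the same stage, 0.55% of all genes were called at the 2-cell and 4% at the 4-cell stage. The 6 lists held 5 adherens junction, 9 tight junction, 7 Wnt, 9 actomyosin, 2 filament and no desmosome genes tested. Of these, Gsk3b alone was called in either comparison. At the 4-cell stage it was lower in Ago2 kd (difference -4.81, standard error 0.40, adjusted p = 0.00103), a call that held in 15 of 16 alternatives and ended when the fit held only the groups compared (adjusted p = 0.212). At the 2-cell stage the difference was -2.16 (unadjusted p = 0.00108, adjusted p = 0.111), and the difference between both effects was -2.66 (adjusted p = 0.0759). The listed kinase Csnk1a1, which acts before Gsk3b on beta-catenin, overlapped between the 4-cell control (55.9 and 28.5 FPKM) and Ago2 kd (10.5 and 38.5 FPKM). It was named after its values were seen.

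Of 14 actomyosin cortex genes 12 had values and 9 were tested. At the step to the 2-cell stage 1 was called lower, and at the step to the 4-cell stage 2 were called higher and 2 lower, where 20.8% and 38.6% of all genes were called. Actn4, an actin crosslinker, fell from 111 and 97.7 FPKM in oocytes to 30.2 and 23.0 FPKM in the 2-cell control (difference -1.94, adjusted p = 0.0254). It then rose to 64.9 and 84.9 FPKM (1.46, adjusted p = 0.0428). Rhoa, the GTPase that drives actomyosin contraction, rose by 5.39 (adjusted p = 0.0362), with 0.0718 and 49.9 FPKM before and 275 and 346 FPKM after it. Myh10, a non-muscle myosin heavy chain, fell by 1.64 (adjusted p = 0.00397), from 2.93 and 2.64 FPKM to 0.186 and 0.241 FPKM, a call kept in all 16 alternatives. It was also at 0.261 and 0.261 FPKM in 2-cell Ago2 kd, a difference of -1.58 from control that missed the threshold (adjusted p = 0.0872). Cdc42, a GTPase of cell polarity, fell by 1.09 (adjusted p = 0.0345), with 445 and 389 FPKM before and 269 and 141 FPKM after this step, and was named after its values were seen.

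Both Actn4 calls ended under median scaling (adjusted p = 0.201 and 0.229) and without any 1 of the libraries compared (0.0646 to 0.161). The later one also ended without either oocyte library (0.0704 and 0.0713). Of 6 other settings, 3 kept the Rhoa call and 4 the Cdc42 call. The Rhoa call was lost in 8 and the Cdc42 call in 7 of 10 fits without 1 library. Among these fits, Rhoa kept its call only without replicate 1 of the oocytes or replicate 2 of the 2-cell control. Its difference was 2.60 without replicate 1 of the 2-cell control. Cdc42 kept its call among them only without replicate 1 of the 4-cell control or either 4-cell Ago2 kd library.

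**Figure D4:**
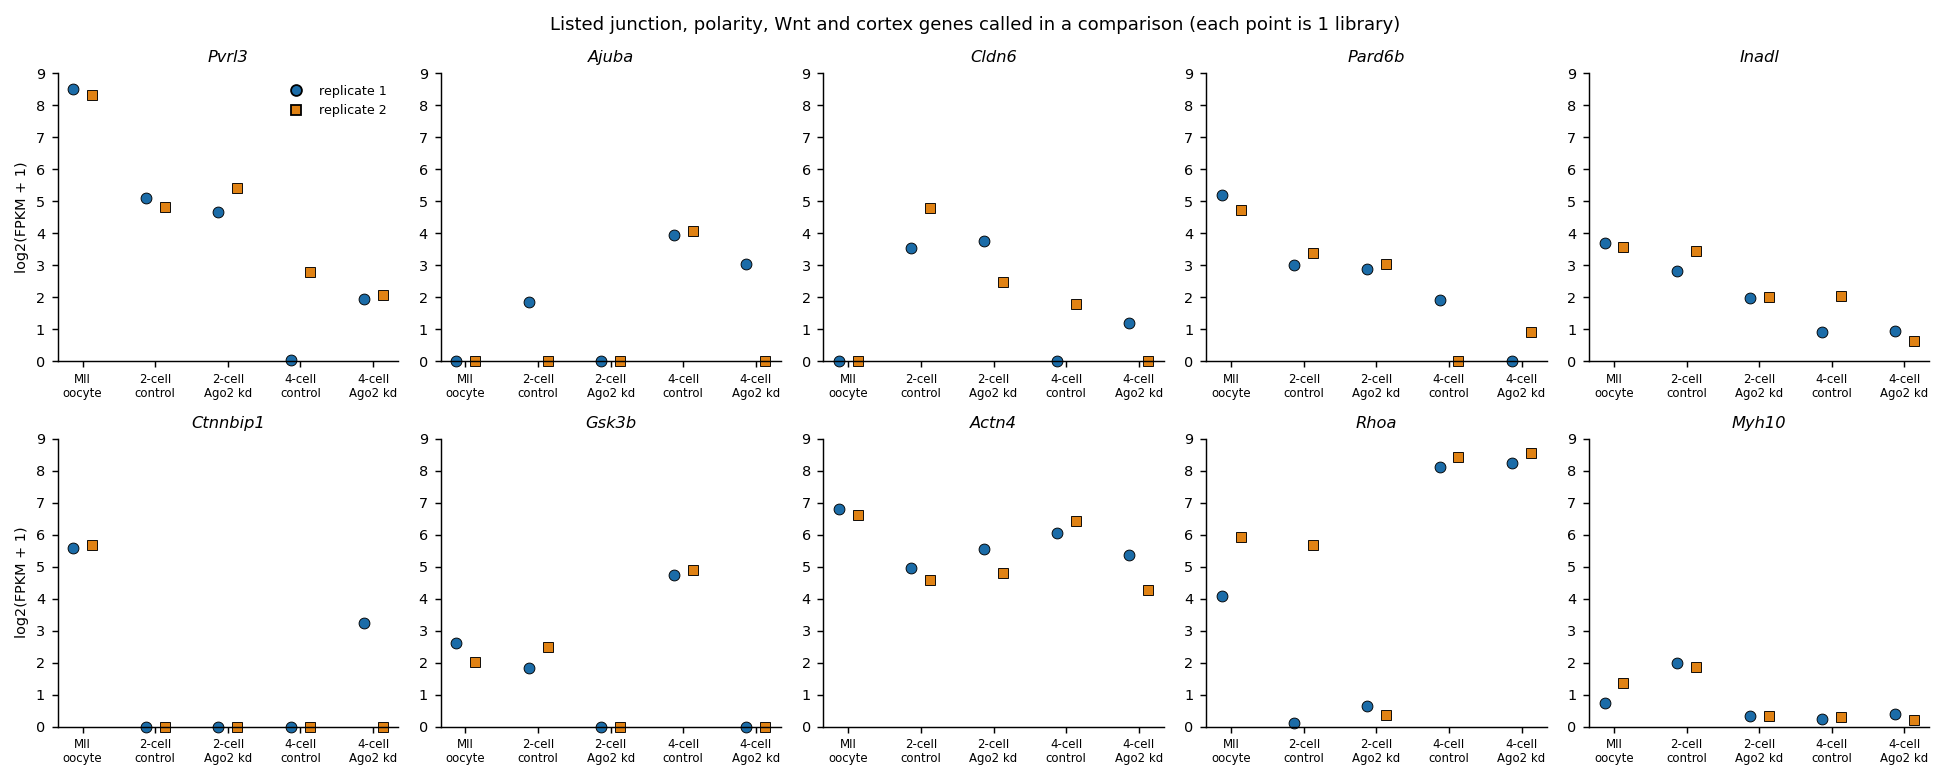
Level as log2(FPKM + 1) on the vertical axis for 10 listed genes called in a comparison with groups that did not overlap, by group on the horizontal axis, 1 point per library (circles for replicate 1, squares for replicate 2). Gsk3b is at 25.5 and 28.8 FPKM in the 4-cell control and at 0 in all 4 Ago2 kd libraries, and Ctnnbip1 is at 47.3 and 49.9 FPKM in oocytes and at 0 in the control embryos.

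Of 8 desmosome genes 4 had values and none was tested. The highest of these values was 1.16 FPKM, of the desmosomal cadherin Dsc2 in replicate 1 of 2-cell Ago2 kd. Of 13 other intermediate filament, plakin and lamin genes 5 had values, of which Lmna and Lmnb1 were tested and not called in any of the 5 comparisons. Lmna, for lamin A, overlapped between oocytes and both control groups. It was at 23.3 and 23.1 FPKM in oocytes, 32.5 and 22.8 in the 2-cell control and 19.7 and 49.0 in the 4-cell control. Both 2-cell Ago2 kd libraries, at 55.4 and 34.5 FPKM, were above both 2-cell control libraries, and the share of all genes that separated so was not counted. For Lmna the 4-cell Ago2 kd libraries were at 85.9 and 6.56 FPKM. The remaining filament genes, Krt19, Krt42 and Vim, reached at most 1.67 FPKM, that of Vim in replicate 1 of the 2-cell control. The summed FPKM of 5 trophectoderm markers with values was 19.4 to 39.3 up to the 2-cell stage, 150 and 195 in the 4-cell control and 106 and 48.2 in 4-cell Ago2 kd, while Krt18 was listed at 0 in these 4-cell libraries. Most of this sum was Tfap2c, at 133 and 154 FPKM in the control embryos of the 4-cell stage and at 105 and 48.2 FPKM after Ago2 kd. The markers did not move alike. Of 4 tested, 2 were called higher and 1 lower from the 2-cell to the 4-cell control, where 38.6% of all genes were called. Gata2 and Cdx2 were named after their values were seen. Gata2 was at 1.23 and 1.25 FPKM in the 2-cell control and at 0 and 0.159 FPKM in the 4-cell control. Cdx2 was at 1.27 and 0 FPKM in the 4-cell control and at 0 in all other libraries. Tead4, a transcription factor of the trophectoderm that was named after its values were seen, was at 16.5 and 40.1 FPKM in the 4-cell control and listed at 0 in the other 8 libraries. It was called lower in 4-cell Ago2 kd (difference -4.75, adjusted p = 0.00112). Of the 2-cell markers Tcstv3, also named after its values were seen, was called higher there (difference 3.12, adjusted p = 0.00485), at 13.7 and 13.5 FPKM against 0.541 and 0.812 FPKM in the control. At the 2-cell stage Tcstv3 was lower in Ago2 kd, at 134 and 134 FPKM against 273 and 306 FPKM in the control, without a call. The difference between both effects was called for Tcstv3 (4.23, adjusted p = 0.00928) and Tead4 (-4.75, adjusted p = 0.00896).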

How the data were processed

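RNA-seq libraries of MII oocytes and of control and Ago2 kd 2-cell and 4-cell embryos were assigned to 5 groups of 2 by their labels. According to the methods, the authors used FastQC and Trim Galore on the reads, HISAT2 (2.1.0 in the submitters' processing notes) for alignment to GRCm38.p6, HTSeq-count for counting and DESeq2 for tests. The deposited values used here are the authors' FPKM from StringTie, 1 per gene name and library. How several transcripts or identifiers were reduced to 1 name, and whether counting used strand, is not given in the sources used here. Depth and counting error cannot be had without counts, so the replicates alone give the precision.

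FPKM were analysed as log2(FPKM + 1), which understates changes of low genes, with limma 3.58.1 (R 4.3.3). A mean was fitted for each of 5 groups over 10 libraries, which left 5 residual degrees of freedom. Variances were moderated with a trend (median prior degrees of freedom 1.89), and tests were two-sided. A gene was tested if 2 or more libraries reached 1 FPKM (8726 of 21437), with Benjamini-Hochberg adjustment over all of them and calls at 0.05. The fit was tested on simulated data with normally distributed noise. Such data do not copy genes listed at 0 in 1 replicate and clearly present in the other, so the test does not cover them.

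The genes and lists were chosen with earlier results of these data known. Of each list, at most 3 called genes per comparison whose groups did not overlap are named, by size of the difference, with exceptions stated where they occur, and for each tested gene the 3 others with the highest Pearson's r, of which 1 is not reported here. Gene positions are those of GENCODE M21 on GRCm38. Alternatives were a pseudocount of 0.1, no filter, median scaling, quantile normalization, a replicate block, only the groups compared, and leaving out each library. Plots used matplotlib 3.10.9. Protein sequences were not analysed here. The share of all genes whose groups did not overlap was not counted for any comparison.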

Additional observations from a re-analysis of the deposited data

How the results depend on the processing

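Counts of calls, differences of tested members and calls from the 6 lists were recomputed under 6 other settings and without each library. Ctnnd1 had 14 values because it missed the filter in 2 fits. For the comparisons of oocytes with 4-cell control and both Ago2 kd groups, recomputing was done for the tested members alone. It was chosen after seeing the data. With an arm of 1 library, that library is assumed to vary like the other groups. No member was called at the step to the 4-cell stage, in either Ago2 kd comparison or in the difference between both effects under any of these. The number of members called at the step from oocyte to 2-cell control was 2, against 1 with a pseudocount of 0.1, 1 without a filter (Tjp1, while Cdh1 and Ctnna1 passed no longer), 0 with median scaling, 0 with quantile normalization and 0 to 2 without 1 library. The number of genes called at that step was 1811 and ranged from 620 to 1950 without 1 library. For 2-cell Ago2 kd it was 48, against 132 without a filter, 0 with only the groups compared and 33 to 79 without 1 library. For 4-cell Ago2 kd it was 349, against 0 with only the groups compared and 142 to 602 without 1 library, and for the difference between both effects 199, against 74 to 425 without 1 library. The Tead4 and Tcstv3 calls in 4-cell Ago2 kd were not recomputed singly. Neither held with only the groups compared, where no gene was called. With 2 libraries a group, the fit of only the groups compared has few degrees of freedom.

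Labels number the replicates 1 and 2 but do not say that a number pairs libraries, and deviations of same-numbered libraries correlated at -0.0931 to 0.0924 between groups. With the number as a replicate block, 23 genes were called in 2-cell Ago2 kd and the calls of Cdh1 and Ctnna1 held, while that of Pard6b ended (adjusted p = 0.0559).

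Some differences that were not called turned sign without 1 library. Over these fits, the Ago2 kd difference at the 2-cell stage ranged from -0.87 to 0.52 for Ctnna1 (0.52 without replicate 2 of Ago2 kd), from -0.17 to 0.64 for Ctnnb1 (-0.17 without replicate 1 of Ago2 kd, -0.07 without replicate 1 of the control) and from -0.49 to 1.55 for Ctnnd1 (-0.49 without replicate 2 of the control). At the 4-cell stage it ranged from -3.39 to 0.15 for Cdh1 (0.15 without replicate 1 of the control). The difference between both effects ranged from -1.21 to 0.17 for Ctnna1 (0.17 without replicate 1 of 2-cell Ago2 kd) and from -1.55 to 0.49 for Ctnnd1 (0.49 without replicate 2 of the 2-cell control). From oocyte to 4-cell control it ranged from -4.60 to 1.65 for Ctnnb1 (1.65 without replicate 1 of the oocytes, 0.55 without replicate 2 of the 4-cell control). Apart from the loss of a library in the fits that leave 1 out, the cause of these changes was not tested.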

Other observations

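Genes that marked just a pair of libraries were not limited to replicates of a group. Of the genes tested, 253 were at 1 FPKM or more in both oocyte libraries and in no other, 145 in both 4-cell control libraries, 94 in both 4-cell Ago2 kd libraries, 41 in both 2-cell Ago2 kd libraries and 21 in both 2-cell control libraries. By the same count, 111 genes were shared by replicate 1 of the 4-cell control and replicate 2 of 4-cell Ago2 kd alone. The pattern of Ctnnb1, with replicate 1 of the oocytes and replicate 1 of the 4-cell control both at least 10 times every other library, was shared by 17 genes, Ctnnb1 included. Over the 40 pairs of libraries from different groups, this number had a median of 4.0 and ranged from 0 to 62. These counts were made after the values of Ctnnb1 and Ctnnd1 had been seen.

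F11r, which codes for the junctional adhesion molecule JAM-A and was named after its values were seen, had FPKM of 24.7 and 23.0 in control and 0 and 9.59 in Ago2 kd at the 2-cell stage. At the 4-cell stage control libraries were at 247 and 228 FPKM and Ago2 kd libraries at 0.638 and 188 FPKM. Both Ago2 kd libraries were lower than both controls at each stage, by differences of -2.93 (adjusted p = 1) and -3.76 (adjusted p = 0.493) that missed the threshold in limma. The share of all genes with such a separation was not counted.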
